A study of Mus musculus with 4 samples.

Results

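Hormones and growth factors made by striated muscle were followed in mice lacking MG56 (Hhatl), at the level of their transcripts. The genes were 9 in number, chosen by name: the stress hormone genes Fgf21 and Gdf15, the myostatin gene Mstn with its binding protein follistatin (Fst) and its receptor gene Acvr2b, and the genes of the secreted factors Metrnl, Fndc5, Il15 and Stc2. Of these, 7 had probe sets carrying their symbol alone in the annotation table of the array, with 15 probe sets among the 45037 measured and 7 genes among 18193. Gdf15 and Mstn had 0 such probe sets in that table and were not analysed here, so myostatin signalling is described through its binding protein, its receptors and its relatives.

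The samples were tibialis anterior (TA), a fast muscle of the lower leg, and heart, taken at postnatal day 9 from MG56-knockout mice and from wild-type mice, both on the C57BL/6J background. RNA of 3 knockout mice was pooled before hybridisation, and RNA of wild-type mice was pooled as well, which leaves 1 array for each genotype and tissue, 4 in all. The sources used here give neither the allele, nor the sex of the mice, nor the number of wild-type mice. No replicate error can be computed, so the values below compare 4 pools of RNA and carry no test.

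Myostatin is a ligand of the TGF-beta superfamily, secreted by muscle fibres, that limits muscle mass. It binds activin type II receptors, among them Acvr2b, which recruit type I receptors and lead to phosphorylation of Smad2 and Smad3. Follistatin binds myostatin and activins in the extracellular space and keeps them from the receptors. Fgf21 is an endocrine fibroblast growth factor best known from the liver in fasting. Muscle makes it when the integrated stress response is active, and the transcription factor ATF4 acts on its gene through composite C/EBP-ATF elements.

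The gene whose sequence matters most for what follows is Fgf21, since it was the only member that differed strongly between the genotypes. Its promoter, from 250 bases before to 50 bases after the transcript start in RefSeq (GRCm38.p6, chr7:45615441-45615740, minus strand), is shown beside that of Asns (chr6:7693160-7693459, minus strand). Asns encodes asparagine synthetase, an enzyme gene with a like pattern over the arrays that is described below. Both read 5′ to 3′, and capitals mark matches to the motifs searched.
Fgf21: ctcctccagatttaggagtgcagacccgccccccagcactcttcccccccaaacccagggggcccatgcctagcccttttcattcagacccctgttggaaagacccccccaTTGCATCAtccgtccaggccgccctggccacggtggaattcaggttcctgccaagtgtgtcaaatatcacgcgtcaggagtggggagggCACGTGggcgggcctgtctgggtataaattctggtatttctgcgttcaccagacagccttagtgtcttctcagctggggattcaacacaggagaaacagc
Asns: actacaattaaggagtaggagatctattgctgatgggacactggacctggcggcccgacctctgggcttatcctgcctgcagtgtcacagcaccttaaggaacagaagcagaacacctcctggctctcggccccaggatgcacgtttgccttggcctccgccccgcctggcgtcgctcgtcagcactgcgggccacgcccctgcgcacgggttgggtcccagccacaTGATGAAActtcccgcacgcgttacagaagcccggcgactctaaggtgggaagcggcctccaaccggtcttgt
In the Fgf21 promoter the capitals mark TTGCATCA, which begins 139 bases before the start and matches TGATGNAA, the core of the C/EBP-ATF element, on the opposite strand. They also mark CACGTG, an E-box, 50 bases before the start. In the Asns promoter they mark TGATGAAA, 23 bases before the start, which matches TGATGNAA on the strand shown. The promoter of Pdia4, a gene whose pattern is nearer to that of Fgf21 than the pattern of Asns, held none of the motifs and is not shown. Of 32851 promoters of 300 bases in the RefSeq table, 3.97% held TGATGNAA and 7.15% held CACGTG on either strand. Promoters were found for 7 of the 9 genes, 6 of them besides Fgf21 (Acvr2b, Fndc5, Gdf15, Metrnl, Mstn and Stc2), and none of these 6 held TGATGNAA in its window, while a window of Gdf15 held CACGTG. The ER stress element (CCAAT and CCACG with 9 bases between them) and GTCTAGAC, a Smad palindrome, occurred in 0.119% and 0.213% of all promoters and in none of these genes. A match is a string of letters in a window and was not tested as a site.

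Each probe set has 1 signal, a linear intensity. The median over all probe sets and arrays, 101.3, served as a floor to which lower signals were raised. A gene counted as measured in a comparison if its brightest probe set reached the floor on at least 1 of the arrays compared, and a fold that used the floor is written as "at least". As a yardstick in place of replicates, the log2 knockout-over-wild-type ratios of the 2 brightest measured probe sets of a gene differed by a median of 0.18 in TA (5173 genes) and 0.18 in heart (5241 genes), and by 0.69 and 0.71 at the 95th percentile. This yardstick measures disagreement between probe sets on the same arrays and not the spread between mice.

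Fgf21 stood far above its wild-type signal in knockout TA. Its signal was 687 in knockout TA, 46.5 in wild-type TA, 19.7 in knockout heart and 20.3 in wild-type heart. Only the knockout TA array reached the floor, and the other 3 arrays were dim. Against the floor, knockout TA was at least 6.78-fold higher than wild-type TA, a bound that 7 of the 11528 genes measured exceeded with their own ratios or bounds. The plain quotient of the signals was 14.8-fold, but its denominator lies in the range where signals have no firm order. In heart neither genotype reached the floor, so no fold is given there, and the tissues cannot be compared in wild type for the same reason. Only 1 probe set reads Fgf21, so no second reading exists.

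**Figure D1:**
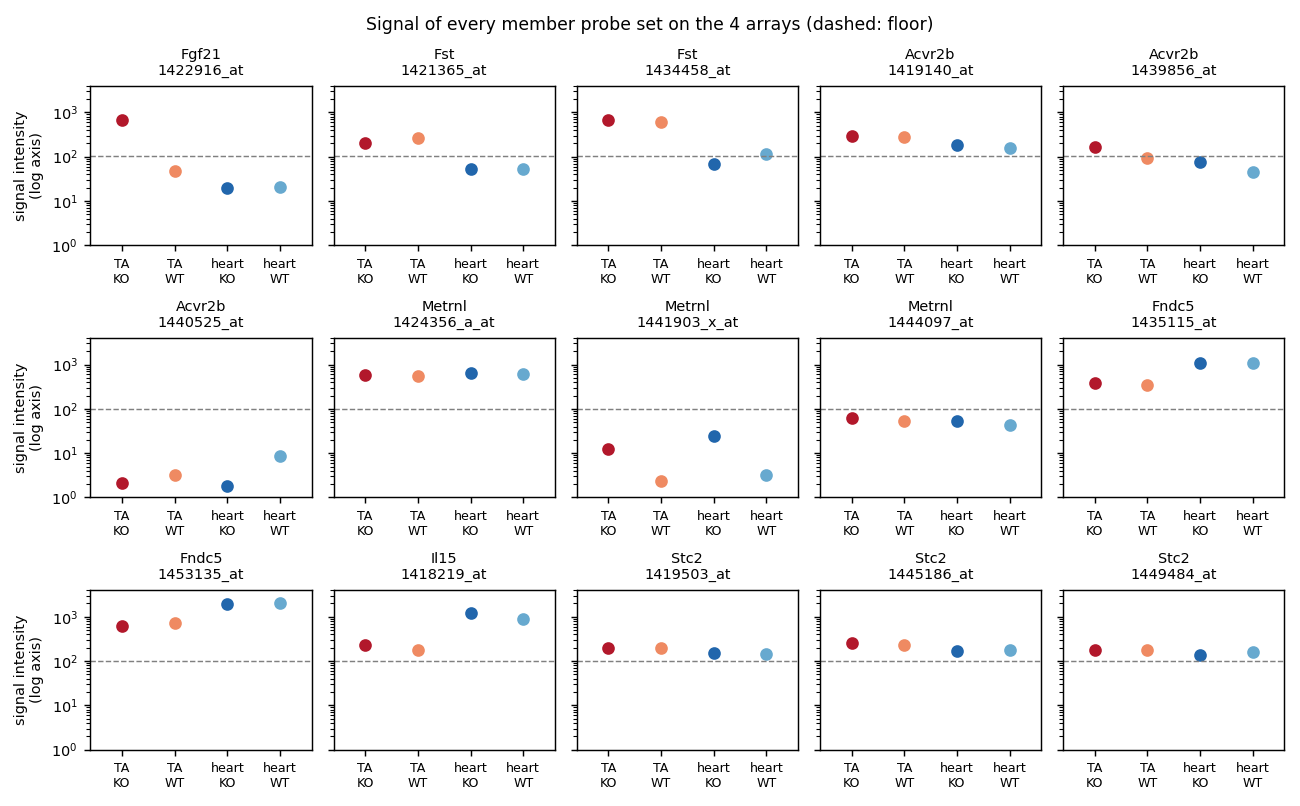
Signal intensity (log axis) of each of the 15 member probe sets on the 4 arrays, 1 panel per probe set and 1 point per array of pooled RNA (KO, knockout; WT, wild type), with the floor of 101.3 as a dashed line. Fgf21 lies above the floor in knockout TA alone, Il15 and Fndc5 are higher in heart, and Fst is higher in TA.

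Seen against all genes, Fgf21 was the only 1 of the 7 measured members at least 1.5-fold higher in knockout TA, where 4.19% of all genes measured passed that mark, and 0 members were 1.5-fold lower, against 4.44% of all genes. Without Fgf21 the log2 ratios of the members in TA ran from -0.24 for Fndc5 to 0.33 for Il15. In heart, 0 of 6 measured members were 1.5-fold higher and 0 were 1.5-fold lower, against 2.67% and 4.18% of 11452 genes, and the log2 ratios ran from -0.17 for Fst, a bound, to 0.42 for Il15. The median log2 ratio of the members was 0.18 in TA and 0.01 in heart, beside -0.01 and -0.002 over all genes measured.

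**Figure D2:**
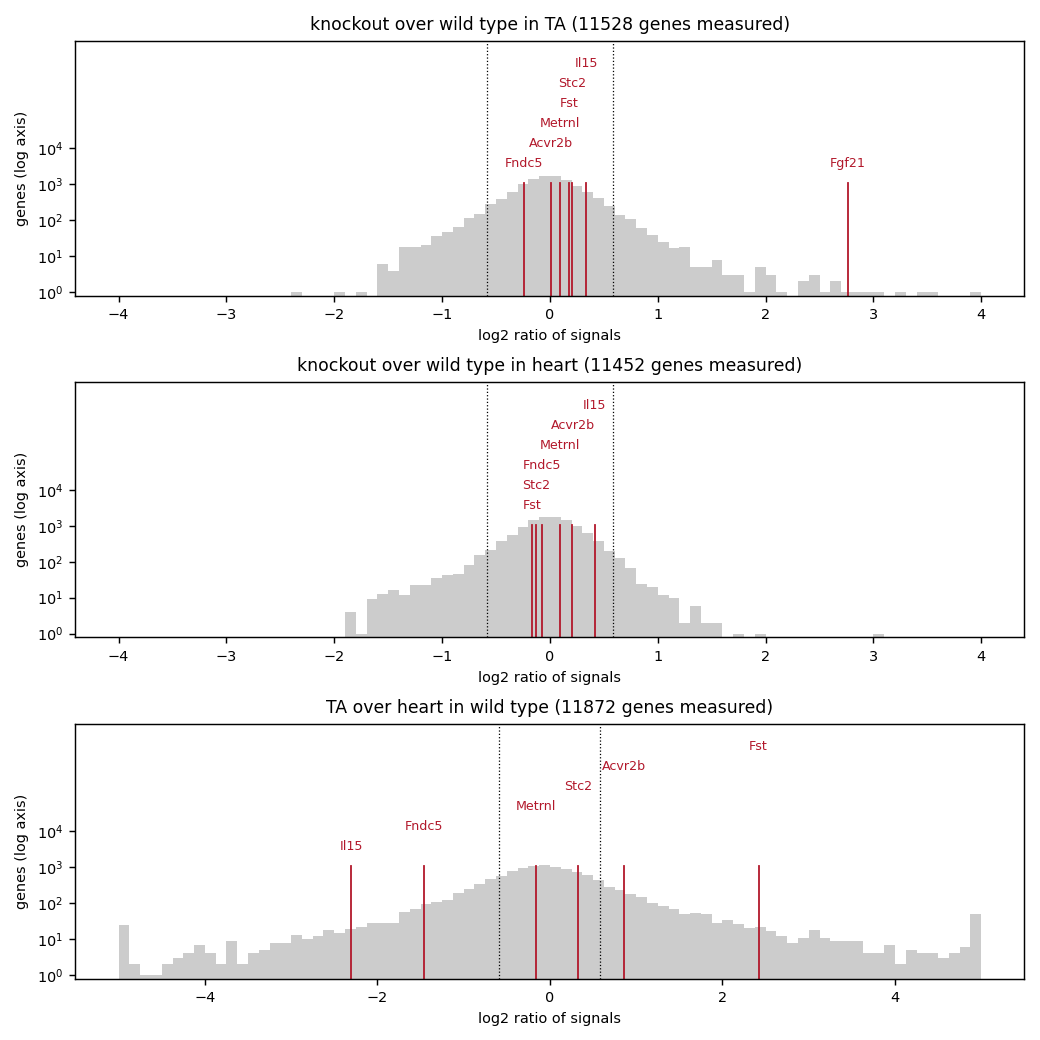
Number of genes (log axis) by log2 ratio of signals in grey, with the measured members as red lines, for knockout over wild type in TA, the same in heart, and TA over heart in wild type; dotted lines mark 1.5-fold, and the end bars hold genes beyond the axis. In TA, Fgf21 at 2.76 lies apart from the other members, which sit in the bulk of the genes in both tissues.

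With dim signals raised to the floor, the 3 genes nearest to Fgf21 over the 4 arrays are known from endoplasmic reticulum (ER) and amino acid stress programmes. Likeness was the root mean square difference between floored log2 signals, each gene centred on its own mean over the 4 arrays, and 12177 genes were searched. The nearest was Manf, a secreted ER stress protein gene, at 0.04, followed by the disulfide isomerase gene Pdia4 at 0.09 and Asns at 0.19. Manf had signals of 17358 and 2418 in knockout and wild-type TA and 2398 and 2389 in knockout and wild-type heart. Each of the 3 genes was high on the knockout TA array and nearly level over the other 3, as Fgf21 was once its dim arrays were raised to the floor. The floor makes those 3 arrays equal for Fgf21 and sets how far knockout TA stands above them. Which genes are nearest, and their order, therefore depend on the floor, and a shared programme was not tested. Of these genes, Asns and Pdia4 had a promoter in the table, and that of Pdia4 held none of the motifs.

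**Figure D3:**
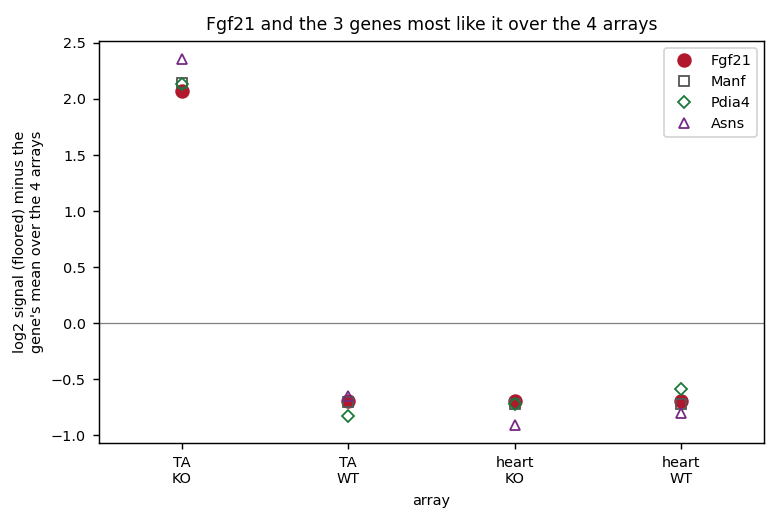
Log2 signal, raised to the floor and centred on each gene's mean over the 4 arrays, for Fgf21 (filled circles) and for Manf, Pdia4 and Asns (open symbols), with 1 point per array of pooled RNA. All 4 genes lie above 2 on the knockout TA array and below 0 on the other 3.

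The factors and kinases known to act on Fgf21 and Gdf15 were also higher in knockout TA as a list. Past 1.5-fold upwards were 11 of 21 measured, against 4.19% of all genes, and 0 downwards, against 4.44%. The median log2 ratio was 0.68. Atf4, the central transcription factor gene of the integrated stress response, had signals of 8586 and 4795 in knockout and wild-type TA, a 1.79-fold difference, and of 4287 and 3676 in heart. A second measured probe set of Atf4 gave 2.01-fold in TA. Its dimerisation partners Cebpb and Cebpg were 1.74-fold and 1.62-fold higher, and the ER stress sensor gene Atf6 2.19-fold. Ppp1r15a, which encodes a phosphatase subunit that reverses the stress signal, was 2.15-fold higher, and Nfe2l2, a factor gene of the oxidative stress response, 1.60-fold. Ddit3, which encodes CHOP, was 3.93-fold and Atf3 2.94-fold higher. The pseudokinase gene Trib3 was at least 11.2-fold higher on its brightest probe set and 8.16-fold on the other. Of the 4 kinase genes upstream, 0 passed 1.5-fold in TA on their brightest probe sets, with log2 ratios of 0.26 for Eif2ak1 (HRI), 0.20 for Eif2ak3 (PERK) and -0.03 for Eif2ak4 (GCN2). Other probe sets of Eif2ak1 gave -0.58 and -0.30, so it has no settled direction. Eif2ak2 (PKR) was at least 1.42-fold lower, with signals of 62.3 in knockout and 143 in wild-type TA. Ppara, the fasting regulator of Fgf21 in liver, had a log2 ratio of -0.30. Several members of this list were known to be high in these arrays when it was written, so its count is not independent evidence.

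In heart, 4 of 22 factors passed 1.5-fold upwards and 2 downwards, against 2.67% and 4.18% of all genes. Their median log2 ratio was 0.18. Pparg, the adipocyte nuclear receptor gene, was at least 2.26-fold, Cebpb 1.68-fold and Ppargc1a, a coactivator gene of mitochondrial biogenesis, 1.56-fold higher. The other probe sets of Ppargc1a were also higher but did not reach 1.5-fold, the lowest being at 1.23-fold. Trib3 was 1.91-fold higher on its brightest probe set and 1.26-fold lower on the other, so its direction in heart depends on the probe set. Creb3l3, a membrane-bound factor gene, was 2.07-fold lower and the kinase gene Eif2ak2 1.59-fold lower.

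Liver is the main source of Fgf21 known from adult animals, and its markers were under the floor in TA. Of the 9 liver marker genes with a probe set, 0 reached the floor on either TA array, and their summed signal was 236 in knockout and 268 in wild-type TA, with Alb at 75.6 and 76.1. Adipocyte markers had a summed signal of 21924 in knockout and 22713 in wild-type TA, most of it from Fabp4 at 21203 and 21937. Adipoq stood at 494 and 438 (log2 ratio 0.17). The other measured adipocyte markers had log2 ratios of -0.38 (Cidea), -0.05 (Fabp4) and -0.04 (Retn, a bound). The median log2 ratios of skeletal muscle, fibroblast, endothelial and myoblast markers in TA were -0.21, -0.12, -0.10 and -0.06. In these lists 0 markers were 1.5-fold higher. Myh2, 1 of 17 skeletal muscle markers, was 1.51-fold lower and Egfl7, 1 of 10 endothelial markers, 1.68-fold lower, where 4.44% of all genes were 1.5-fold lower. Among leukocyte markers, 2 of 8 measured genes were at least 1.5-fold higher in knockout TA, against 4.19% of all genes. They were S100a8 at 5.26-fold and S100a9 at least 1.94-fold. The other measured leukocyte markers had log2 ratios from -0.01 (Adgre1) to 0.28 (Lyz2). The summed signal of the leukocyte markers was 10625 in knockout and 9423 in wild-type TA, and their part in the result was not tested. In bulk RNA, a change in the share of a cell type and a change in RNA per cell cannot be told apart.

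Neither Fst nor Acvr2b passed 1.5-fold between the genotypes on its brightest probe set. Fst had 2 probe sets. The brighter gave signals of 688 in knockout TA, 608 in wild-type TA, 68.0 in knockout heart and 114 in wild-type heart, and the other 205, 267, 51.5 and 53.3. The TA arrays are the bright ones on both, but knockout and wild-type TA stand in opposite order on them, 1.13-fold higher on the first and 1.31-fold lower on the second. No direction can therefore be given for Fst in TA. In heart the first probe set was at least 1.12-fold lower in the knockout, with only wild-type heart above the floor, and 1.67-fold lower without a floor.

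Acvr2b, a type II receptor gene for myostatin and activins, had 3 probe sets. The brightest gave 286 and 284 in knockout and wild-type TA, and 181 and 156 in knockout and wild-type heart. Its log2 ratios were 0.01 in TA and 0.21 in heart, so the genotypes lay closer to each other than the tissues did. The second probe set gave 169, 92.8, 76.3 and 45.5 in the same order and was at least 1.66-fold higher in knockout TA. The third lay between 1.8 and 8.8 on all 4 arrays, far under the floor.

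Few genes of the pathway lists around them passed that mark. The counts below include Acvr2b itself among the receptors and Fst itself among the inhibitors. Of 12 measured ligand genes of the family, 0 passed 1.5-fold in TA in either direction (median log2 ratio -0.002). The activin subunit gene Inhba was at 0.51 and Tgfb2 at -0.55, and the 4 probe sets of Tgfb2 lay between -0.59 and -0.51, 2 of them just past the mark. In heart 1 of 12 passed, Gdf10 at a log2 ratio of 0.59, and 0 were lower. Among receptors, 0 of 11 in TA and 0 of 10 in heart passed in either direction, with medians of -0.04 and 0.08. Acvr2a, the other type II receptor gene, had log2 ratios of -0.15 in TA and 0.09 in heart, and the type I receptor genes Acvr1b and Tgfbr1 had -0.39 and 0.28 in TA. Among inhibitors and latency proteins, 0 of 11 in TA and 0 of 10 in heart passed. Wfikkn2, whose product binds myostatin, was dim, with signals of 112 in knockout and 91.6 in wild-type TA. Among the Smads and their regulators 0 of 12 passed in either tissue, Smad3 having a log2 ratio of -0.51 in TA and Smad2 of 0.23. Of the proteases that free myostatin from its propeptide or its precursor, 0 of 5 passed in TA and 0 of 4 in heart, with Bmp1 at 0.46 and Furin at 0.40 in TA. Across these 5 lists, 0 genes in TA passed on their brightest probe set a mark that 8.63% of all genes measured passed in either direction. With the floor at the 25th percentile 1 ligand was lower and 1 inhibitor higher, and with no floor 1 ligand and 1 receptor were lower and 2 inhibitors higher.

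**Figure D4:**
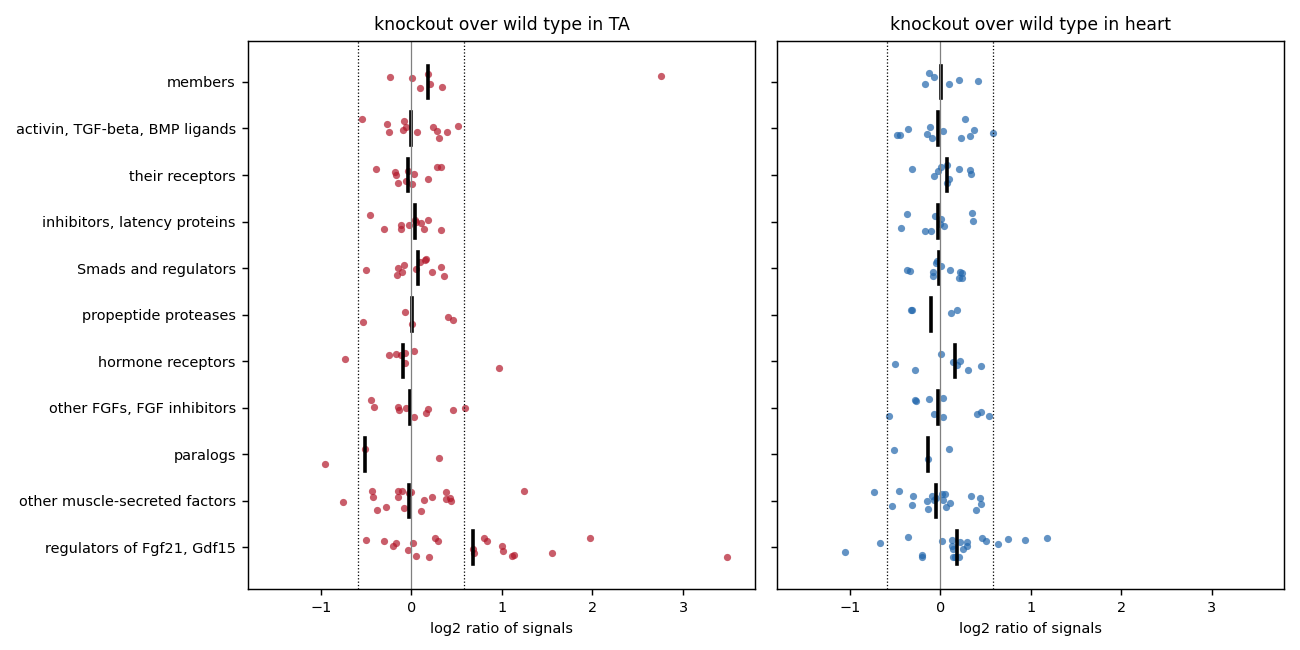
Log2 ratio of knockout over wild-type signal for each measured gene (points, spread vertically for legibility) of the members and of the 10 pathway lists, in TA (left, red) and heart (right, blue); thick bars are medians and dotted lines mark 1.5-fold. The myostatin and activin lists lie within the dotted lines in TA, while the regulators of Fgf21 and Gdf15 have a median of 0.68.

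The remaining secreted factors were level or nearly so. Il15, a cytokine gene expressed in muscle, had signals of 230 in knockout TA, 182 in wild-type TA, 1202 in knockout heart and 900 in wild-type heart on its 1 probe set. Both knockout pools were the higher of their pair, by 1.26-fold in TA and 1.34-fold in heart. These ratios lie under the 95th percentile of the disagreement between probe sets. Fndc5, which encodes the precursor of irisin, gave 616, 727, 1906 and 2002 on its brighter probe set, in the order knockout TA, wild-type TA, knockout heart and wild-type heart, and 386, 355, 1068 and 1111 on the other. In heart both probe sets were within 1.05-fold of equal, and in TA they pointed opposite ways, 1.18-fold lower and 1.09-fold higher.

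Metrnl, the gene of meteorin-like, a hormone of exercised muscle and fat, gave 583, 546, 648 and 609 in that order, which is 1.07-fold higher in knockout TA and a log2 ratio of 0.09 in heart. Its other 2 probe sets stayed under the floor on all 4 arrays. Stc2 encodes stanniocalcin 2, a glycoprotein hormone that inhibits the protease PAPP-A and is known as a target of the unfolded protein response. Its 3 probe sets were above the floor on all 4 arrays. The brightest gave 262, 227, 166 and 181 in that order, the next 198, 200, 152 and 145, and the dimmest 175, 180, 138 and 158. TA was above heart on each of the 3, but the ratio between genotypes stayed within 1.15-fold on all of them. The large difference of Fgf21 in knockout TA therefore has no counterpart in Stc2 on these arrays.

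Of their paralogs, Metrn, the gene of meteorin, differed most. Its signals were 1031 in knockout TA, 2005 in wild-type TA, 557 in knockout heart and 793 in wild-type heart. Both knockout pools were lower, by 1.94-fold in TA and 1.43-fold in heart. The second probe set of Metrn stayed under the floor on all 4 arrays, so these folds rest on 1 probe set. Metrn was the only 1 of 3 measured paralogs that was 1.5-fold lower in TA, where 4.44% of all genes were. Fndc4 was 1.43-fold lower in TA and 1.10-fold lower in heart.

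Receptors for these hormones were mostly level in TA. Klb, the gene of beta-klotho, the coreceptor that FGF21 needs, was under the floor on each of the 4 arrays. Its signals lay between 6.8 and 41.3 on its brighter probe set and between 3.8 and 7.3 on the other. Fgfr1 had signals of 878 and 919 in knockout and wild-type TA. Of 8 measured receptor genes 1 was at least 1.5-fold higher in TA, Fgfr3 at 1.96-fold (272 against 139), and 1 lower, Ret, the signalling partner of the Gdf15 receptor, at 1.67-fold (284 against 474). In heart 0 of 8 passed in either direction. Among other FGF genes and FGF inhibitors 1 of 10 passed in TA, Fgf7 at 1.51-fold higher, and 0 were lower. Of 19 other muscle-secreted factors measured in TA, 1 was 1.5-fold higher and 1 lower. Over all genes in TA the shares were 4.19% upwards and 4.44% downwards. In lists of 8, 10 and 19 genes, a count of 1 is the smallest above 0, so it cannot be compared closely with those shares. Lgals3, the gene of galectin-3, was 2.37-fold higher with signals of 1547 and 652, and Clu, the gene of clusterin, was 1.69-fold lower. In heart Lgals3 was at 393 and 386, and 1 of 19 factors passed, Cxcl1 at 1.66-fold lower on its brightest probe set and 1.05-fold lower on the second. The growth factor genes Igf1 and Igf2 had log2 ratios of -0.10 and -0.02 in TA. Il6 was under the floor on all 4 arrays.

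For Fst, Acvr2b, Il15 and Fndc5 the tissues differed more than the genotypes on the brightest probe set. In wild type, Fst was 5.35-fold higher in TA than in heart on its brighter probe set and at least 2.64-fold on the other. Acvr2b was 1.82-fold higher on its brightest probe set, while its others were under the floor on both wild-type arrays. Il15 was 4.93-fold lower in TA than in heart, and Fndc5 2.75-fold lower on its brighter probe set and 3.13-fold on the other. So TA exceeded heart by at least 1.5-fold for 2 of 6 measured members, where 14.5% of 11872 genes passed, and 2 were lower, where 18% did. Metrnl, at 1.12-fold lower in TA, and Stc2, at 1.25-fold higher, lay within the mark. On the knockout arrays the order of the tissues was the same for Fst, Acvr2b, Il15 and Fndc5, with Il15 at 230 in TA and 1202 in heart and Fst at 688 and 68.0. Large tissue differences in the pathway lists ran both ways. Higher in TA were, among others, Igsf1, at 7.33-fold, the ligand gene Bmp5, at 4.63-fold, and the receptor gene Bmpr1b and Fgf7, each at least 4.41-fold. Higher in heart were, among others, Fgf16, at least 4.33-fold, Fgf12, at least 3.30-fold, and Smad6, at 3.05-fold. Tissue and array cannot be told apart in this design.

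No member with a ratio in both tissues passed 1.5-fold in the difference between the tissues' knockout ratios. The log2 ratio in TA minus that in heart ran from -0.20 for Acvr2b to at least 0.35 for Fst, against 6.44% of 10802 genes past the mark upwards and 5.1% downwards. For Fst it was 0.92 without a floor, past the mark, because its knockout heart signal lies under the floor. Fgf21 has no such value because its heart signals were under the floor.

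The labels were checked on the arrays. Hhatl had signals of 1078 and 5491 in knockout and wild-type TA and 880 and 2110 in heart, and the sources used here do not say whether the deletion covers its probe set. All 17 skeletal muscle markers were above the floor in both TA arrays and all 14 heart markers in both heart arrays. The 2% trimmed means of the 4 arrays lay between 496.4 and 496.8. Sex-linked transcripts differed between the pools, with Uty 2.71-fold and 2.29-fold higher and Xist 1.44-fold and 1.30-fold lower in knockout TA and heart. Their part in the values above was not tested.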

How the data were processed

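Transcripts were measured on 4 Affymetrix arrays, 1 per group of pooled RNA. The deposited values are signal intensities on a linear scale, the authors' output of MAS5, per the submitters' processing notes; the sources used here give no version, scaling target or detection calls. With 4 arrays, precision is limited by their number.

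Gene names came from the platform's annotation table (34945 with 1 symbol, 932 with several, 9160 with none; only the first were used), and 34741 matched a RefSeq gene identifier (GRCm38.p6). From the signals as deposited, log2 ratios were computed above a floor at the median, since the median log2 ratio over probe sets was within 0.1 of 0 in each comparison. The probe set with the highest mean signal stood for a gene, with a mark of 1.5-fold and Python 3.11.15, numpy 2.4.6 and pandas 2.3.3. The ratio code was run on the wild-type signals with changes planted without noise in bright genes, and returned 200 of 200 in TA. This checks the arithmetic only and does not cover dim genes such as Fgf21. By rule, all members, up to 4 genes per list with the largest ratios and the 3 genes most like a member past 1.5-fold could be named. The other pathway genes were named for their roles, for large tissue differences or as part of small counts, after their values were seen. Arrays without replicates allow no test. The members and lists were chosen with earlier results of these data known. Alternatives were centring, quantile normalization, other floors and other rules for several probe sets.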

Additional observations from a re-analysis of the deposited data

Results flagged for a closer look

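Members and pathway genes whose ratio pointed opposite ways in the tissues were singled out, the pathway genes only if TA minus heart was at least 1.5-fold; none of these differences was tested, since each tissue has 1 array per genotype. Among the members, Fst had log2 ratios of 0.18 in TA and -0.17 in heart, a difference of at least 0.35. The heart value and the difference are bounds set by the floor, and without a floor they were -0.74 and 0.92. Stc2 had 0.20 and -0.13, a difference of 0.33. The probe sets of each of these genes disagree in TA. Higher in knockout TA and lower in knockout heart were Atf5 (1.0 and -0.35, difference 1.36), Cxcl1 (0.38 and -0.73, difference 1.12), Creb3l3 (0.05, a bound, and -1.05, difference 1.10), Furin (0.40 and -0.32, difference 0.72), Apln (0.14 and -0.53, difference 0.67), Bmp2 (0.28 and -0.36, difference 0.64) and Cxcl12 (0.43 and -0.15, difference 0.59). Lower in knockout TA and higher in knockout heart were Clu (-0.76 and 0.33, difference -1.09), Gdf10 (-0.26 and 0.59, difference -0.85), Fgf18 (-0.44 and 0.41, difference -0.85), Nampt (-0.28 and 0.44, difference -0.71) and Fgf13 (-0.15 and 0.45, difference -0.61). Other probe sets reversed a direction for 3 of them. A second probe set of Cxcl12 gave -0.01 in TA and 0.36 in heart, that of Fgf13 gave -0.23 in heart, and 1 of the 3 of Nampt gave -0.37 in heart. The second measured probe set of Cxcl1 gave 0.43 and -0.07, and all 4 of Clu pointed the same way in each tissue. The other 7 of these pathway genes have 1 probe set each.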

How the results depend on the processing

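No paired analysis was possible because each group has 1 array and the labels give no replicate numbers. The call of Fgf21 in TA rests on the floor. With the floor at the 75th percentile (471.5), its log2 ratio was 0.54, a lower bound, and 0 members passed 1.5-fold in TA. Under all settings run it stayed above 0, up to 3.88 with no floor. With that higher floor, 0 members were 1.5-fold higher in wild-type TA than in heart, since Fst came to 0.37 and Acvr2b was not measured. With a lower floor (25th percentile) or none, 1 member was 1.5-fold lower in knockout heart, Fst at -0.74, and TA minus heart had 1 member (Fst, 0.92) and, with no floor, 2 members (Fst and Fgf21) above 1.5-fold. As the median over probe sets, Fst in TA was -0.10 and Stc2 -0.02. Trib3 in heart, 0.93 on its brightest probe set, was -0.33 without probe sets ending in _s_at or _x_at, and likewise when the probe set was chosen by mean log2 signal, a rule added after seeing the data. The other 66 of 72 member counts under an alternative stayed within 1.5 times. Counts over all genes depend on the floor: 483 genes were 1.5-fold higher in knockout TA, but 234 with the 75th percentile, 1241 with the 25th and 2441 with none; in heart 479 were lower, but 128, 1343 and 2612. Signals under the floor have no firm order.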
